A study of Homo sapiens with 8 samples.

Results

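The nuclear genes for the respiratory chain were examined in A549 cells, a human lung adenocarcinoma line, after transfection with an siRNA against APEX1 (siAPEX1) or a control siRNA (siCTRL). APEX1 encodes APE1, an endonuclease of base excision DNA repair. Of the 58302 genes in the count matrix, 102 were taken. They are the protein-coding genes of GENCODE 44 whose symbol starts with NDUFA, NDUFB, NDUFC, NDUFS, NDUFV, SDHA to SDHD, UQCR, COX4 to COX8, ATP5F1, ATP5M or ATP5P, together with CYC1. By complex, 37 belong to complex I, 4 to complex II, 10 to complex III, 19 to complex IV and 18 to complex V. The prefixes also take in 8 assembly factors of complex I, 4 of complex II and 2 readthrough genes. Each condition had 4 libraries, and what all of them share is the cell line, the transient transfection and the small RNA library kit. The study transfected a single duplex of each kind, and it calls the replicates biological without saying whether each came from a separate culture. The p-values measure the spread between these libraries.

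The respiratory chain sits in the inner mitochondrial membrane. Complexes I and II pass electrons from NADH and succinate to ubiquinone, complex III passes them on to cytochrome c, and complex IV hands them to oxygen. Complexes I, III and IV pump protons, and complex V, the ATP synthase, uses the gradient to make ATP. A few core subunits carry the redox centres or the catalytic sites, many small supernumerary subunits surround them, and complexes I, III, IV and V also hold subunits that are read from mitochondrial DNA. The nuclear genes are known targets of NRF1, of the ETS factor GABP and of YY1.

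Between 1348386 and 1949886 reads were counted on genes per library, and all 4 siAPEX1 libraries were smaller than all 4 siCTRL libraries, so depth and condition cannot be told apart. APEX1 itself had 47 to 64 counts in the siCTRL libraries and 19470 to 27916 in the siAPEX1 libraries. If read from the transcript, these counts would go against the label. Counts per gene do not separate the APEX1 transcript from the transfected siRNA, the origin of those reads was not tested, and each direction below is that of the libraries as labelled. Of 12 A549 markers, 11 had at least 10 counts in every library. Their summed level was 1737 to 1941 CPM in siCTRL and 1565 to 1666 CPM in siAPEX1, with 3 called higher and 5 called lower. Of 10 markers of leukocytes, endothelium, fibroblasts and hepatocytes, 9 had at most 3 counts in every library, the exception was COL1A1, and their summed level was at most 8.30 CPM in siCTRL and 4.12 CPM in siAPEX1. CPM here is the count of a gene over the TMM-scaled total of its library. In bulk RNA, fewer cells of a kind and less RNA per cell cannot be told apart. The members together held 2183 to 4152 counts per library, 0.152% to 0.232% of the reads, and this number limits the precision for each gene.

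Promoters of 81 of the 102 members were in the RefSeq table (GRCh38.p14), each running from 250 bases before the transcription start to 50 bases after it. The motifs were searched on both strands. The NRF1 letters GCGCANGCG were in 26 of the 81 members, 32.1%, against 8.05% of all 27305 promoters. The ETS letters CCGGAAG were in 23, 28.4% against 10.7%, and the YY1 letters AAGATGGCG in 8, 9.88% against 1.85%. The 27305 promoters were not limited to expressed genes and not matched to the members in GC content, so these shares are a description. Among members with a promoter, NRF1 letters were in 2 of the 4 that rose, 3 of the 9 that fell and 16 of the 53 that were tested and not called. The promoters of UQCRC1 and UQCRC2, the paired core proteins of complex III of which only UQCRC1 was called, are shown with those of NDUFA13, which fell, and of NDUFAB1 and ATP5F1C, which rose. They are written 5′ to 3′ on the strand of the gene, with matches in capitals.
UQCRC1 (chr3:48609597-48609896, minus strand): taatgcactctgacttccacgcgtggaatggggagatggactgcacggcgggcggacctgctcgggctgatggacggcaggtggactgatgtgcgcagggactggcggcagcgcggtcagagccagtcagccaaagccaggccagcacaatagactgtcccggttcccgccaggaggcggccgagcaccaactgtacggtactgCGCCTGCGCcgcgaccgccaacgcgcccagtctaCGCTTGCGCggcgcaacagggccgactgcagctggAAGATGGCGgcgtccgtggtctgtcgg
UQCRC2 (chr16:21953111-21953410, plus strand): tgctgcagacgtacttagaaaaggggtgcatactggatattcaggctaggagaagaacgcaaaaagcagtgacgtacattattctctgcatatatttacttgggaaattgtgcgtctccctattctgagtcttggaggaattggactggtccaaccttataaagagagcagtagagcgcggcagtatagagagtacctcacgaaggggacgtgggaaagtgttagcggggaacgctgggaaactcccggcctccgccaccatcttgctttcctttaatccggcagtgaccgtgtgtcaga
NDUFA13 (chr19:19515975-19516274, plus strand): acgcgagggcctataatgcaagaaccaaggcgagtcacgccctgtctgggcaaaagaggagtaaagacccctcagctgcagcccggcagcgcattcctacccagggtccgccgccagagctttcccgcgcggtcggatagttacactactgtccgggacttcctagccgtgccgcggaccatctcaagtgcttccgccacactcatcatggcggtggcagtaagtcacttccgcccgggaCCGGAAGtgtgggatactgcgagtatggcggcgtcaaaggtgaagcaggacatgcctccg
NDUFAB1 (chr16:23596267-23596566, minus strand): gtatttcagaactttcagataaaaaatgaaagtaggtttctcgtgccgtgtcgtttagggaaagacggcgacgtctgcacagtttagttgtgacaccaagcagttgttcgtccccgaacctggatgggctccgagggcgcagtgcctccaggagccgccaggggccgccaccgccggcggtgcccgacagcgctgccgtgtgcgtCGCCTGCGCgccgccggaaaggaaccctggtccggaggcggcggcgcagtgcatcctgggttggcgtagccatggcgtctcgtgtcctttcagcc
ATP5F1C (chr10:7787927-7788226, plus strand): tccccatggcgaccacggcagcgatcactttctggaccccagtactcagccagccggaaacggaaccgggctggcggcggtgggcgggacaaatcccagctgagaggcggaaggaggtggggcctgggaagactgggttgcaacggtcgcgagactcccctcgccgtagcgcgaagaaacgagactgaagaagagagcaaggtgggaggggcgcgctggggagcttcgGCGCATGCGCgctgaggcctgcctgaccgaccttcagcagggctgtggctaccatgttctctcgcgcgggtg
The capitals mark an NRF1 match at each of 2 places and a YY1 match in UQCRC1, an ETS match in NDUFA13, an NRF1 match in NDUFAB1 and a pair of overlapping NRF1 matches, one on each strand, in ATP5F1C. None of these letters was found in the window of UQCRC2. A match is a run of letters and was not measured as binding.

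Of the 102 members, 79 passed the filter on low counts, 12 had counts but fell under it, and 11 had at most 3 counts in every library. Under siAPEX1, 13 of the 79 were lower and 4 were higher, which is 21.5%, against 31.7% of the 5368 genes tested. In each direction the background was 15.9% higher and 15.8% lower over all tested genes, and 12.4% higher and 15.9% lower over the 4857 nuclear protein-coding genes. The share of members that fell was thus close to the background, and the share that rose was below it. The median log2 fold change was -0.04 over the members, -0.03 over the coding genes and -0.0035 over all genes tested. Calls past an absolute log2 fold change of 1 numbered 4 among the members, UQCRC1, NDUFA13, NDUFB2 and ATP5F1D, all of them lower, against 9.28% of all genes. The libraries of the groups did not overlap in CPM for 11 members that were lower, against 14.9% of all genes, and for 2 that were higher, against 14.0%. At an unadjusted p under 0.05, 19 members were lower and 7 higher, and no share over all genes was computed at that level. The other 62 tested members did not pass an adjusted p of 0.05, which at these counts does not show that they stayed the same.

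**Figure D1:**
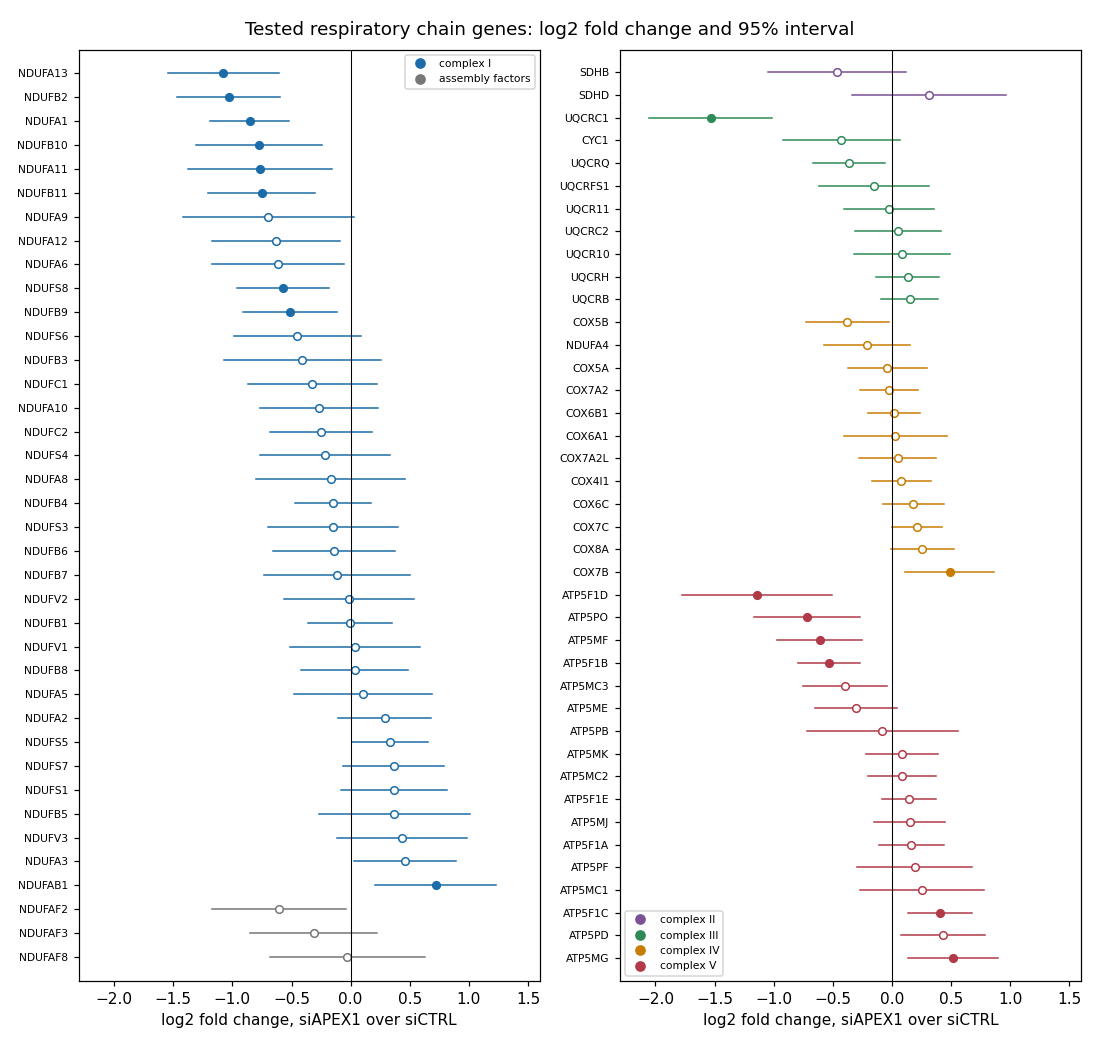
Log2 fold change (siAPEX1 over siCTRL) of 78 of the 79 tested members with its 95% interval, sorted within each complex. Filled points are the 17 members past an adjusted p of 0.05, and in complex I the 8 filled points to the left of 0 face 1 to the right.

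Complex I had 9 members called, 25.0% of those tested, against 35.3% in complex V. Of its 36 tested subunits 8 fell and 1 rose, against 15.8% lower and 15.9% higher over all genes tested, and the median log2 fold change was -0.16. Of the 29 supernumerary subunits tested 7 fell, with a median of -0.25, and of the 7 nuclear core subunits 1 fell, with a median of -0.01. By prefix, 4 of 11 NDUFB subunits fell, which all sit in the membrane arm, and so did 3 of 12 NDUFA subunits tested. None of the 3 NDUFV and neither of the 2 NDUFC subunits was called by edgeR with TMM factors or by DESeq2, and 0 of them had an unadjusted p under 0.05 in either. With library size only, both NDUFC subunits were called lower. The difference between supernumerary and core subunits was not tested.

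NDUFA1 (ENSG00000125356, chrX:119871832-119876662, GRCh38), a small subunit of the membrane arm, was at 45.3, 38.3, 43.1 and 28.8 CPM in siCTRL replicates 1 to 4 and at 17.3, 21.9, 24.5 and 22.2 CPM in siAPEX1 replicates 1 to 4. Every siAPEX1 library was below every siCTRL library, and the log2 fold change was -0.85 (SE 0.165, adjusted p = 6.95e-05). NDUFB2 (ENSG00000090266, chr7:140690777-140722790), of the distal membrane arm, was at 30.2, 22.8, 25.5 and 19.4 CPM in siCTRL and 18.9, 8.93, 10.8 and 9.53 CPM in siAPEX1. The groups were apart by a small margin at siAPEX1 replicate 1, and the log2 fold change was -1.03 (SE 0.215, adjusted p = 2.11e-04). Its exons overlap BRAF and NDUFB2-AS1 on the opposite strand over 35.1% of their bases, and the strand setting of the counting is not given in the sources used here. NDUFA13 (ENSG00000186010, chr19:19515736-19529054), also known as GRIM-19 and needed to assemble the complex, was at 18.1, 22.3, 13.9 and 21.0 CPM in siCTRL and 9.88, 9.74, 6.49 and 9.53 CPM in siAPEX1. The groups did not overlap, and the log2 fold change was -1.08 (SE 0.234, adjusted p = 3.54e-04). It shares 21.0% of its exon bases with YJEFN3 and a readthrough gene on its strand, and reads on such bases are left out when they fit both genes. At an adjusted p of 0.05, fold thresholds aside, these 3 calls held under every alternative fit in which the gene was tested.

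Other subunits fell by less or with wider error. NDUFB11 fell by 0.75 on the log2 scale (adjusted p = 0.00807), NDUFB10 by 0.78 (adjusted p = 0.0209), NDUFA11 by 0.76 (adjusted p = 0.0488) and NDUFB9 by 0.52 (adjusted p = 0.0406), all of the membrane arm. These 4 lie outside the rule for named genes and are named because they were called. The groups did not overlap for NDUFB11 and NDUFA11, and they overlapped for NDUFB10 and NDUFB9. NDUFA11 rested on 5 to 27 counts per library. Each of the 4 calls was lost when single libraries were left out. For NDUFB11 these were siCTRL replicate 1 (log2 fold change -0.56) and siAPEX1 replicate 2 (-0.58), and for NDUFB10 siCTRL replicate 3 (-0.69) and siAPEX1 replicates 1 (-0.70) and 3 (-0.59). For NDUFB9 they were siCTRL replicates 1 (-0.50) and 4 (-0.38) and siAPEX1 replicates 3 (-0.41) and 4 (-0.36). For NDUFA11 they were siCTRL replicates 1 (-0.57) and 3 (-0.79) and siAPEX1 replicates 1 (-0.74), 3 (-0.55) and 4 (-0.79).

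Among the core subunits, NDUFS8, an iron-sulfur protein of the arm that leads to ubiquinone, was at 37.7, 21.8, 33.4 and 27.7 CPM in siCTRL and 19.8, 28.4, 13.0 and 20.7 CPM in siAPEX1. The groups overlapped and the log2 fold change was -0.57 (SE 0.192, adjusted p = 0.0188). The call was lost without siCTRL replicate 1 (-0.45) or 3 (-0.52) and without siAPEX1 replicate 1 (-0.54) or 3 (-0.37). DESeq2 and offsets for GC content lost it as well. NDUFS1, the largest iron-sulfur subunit, had a log2 fold change of 0.37 (95% interval -0.08 to 0.81) and NDUFS7, another iron-sulfur protein, of 0.36 (-0.07 to 0.79). NDUFS3, of the arm that reaches into the matrix, was at -0.15 (-0.70 to 0.40). NDUFV1, which holds the flavin that accepts electrons from NADH, was at 0.03 (-0.52 to 0.58), and its partner NDUFV2 at -0.01 (-0.56 to 0.54). For 51.4% of its exon bases NDUFS7 overlaps other genes on the opposite strand, and NDUFV2 shares 28.4% with a gene on its own strand. The interval of NDUFS3 takes in a fall of the size seen in NDUFS8, and those of NDUFV1 and NDUFV2 end close to it. The intervals of NDUFS1 and NDUFS7 take in no fall of that size but leave room for a rise.

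The subunit that rose was NDUFAB1, the mitochondrial acyl carrier protein, which also serves fatty acid and lipoate synthesis outside the complex. It was at 13.1, 6.78, 9.27 and 12.2 CPM in siCTRL and 9.88, 24.3, 21.6 and 11.1 CPM in siAPEX1. Only siAPEX1 replicates 2 and 3 were above every siCTRL library, and the log2 fold change was 0.72 (SE 0.255, adjusted p = 0.0269). The call was lost without siCTRL replicate 2 (0.56) or 3 (0.67) and without siAPEX1 replicate 2 (0.52) or 3 (0.59). It was also lost with DESeq2, library size only, genes of at least 1 count and the replicate number as a block. NDUFB1 had the highest level per length in the complex, 76.3 CPM per kilobase of transcript, and a log2 fold change of -0.01 (95% interval -0.36 to 0.35). NDUFA7 had 0 to 5 counts per library and was under the filter, and it shares 32.5% of its exon bases with another gene on its strand. Of the assembly factors named NDUFAF, 3 of 8 were tested and none was called by edgeR with TMM factors or by DESeq2, while NDUFAF1, NDUFAF4, NDUFAF5, NDUFAF6 and NDUFAF7 were under the filter. At an unadjusted p under 0.05 edgeR had 1 of them lower, NDUFAF2, at -0.61 (adjusted p = 0.100) with no overlap between groups, and with library size only NDUFAF2 and NDUFAF3 were called lower.

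**Figure D2:**
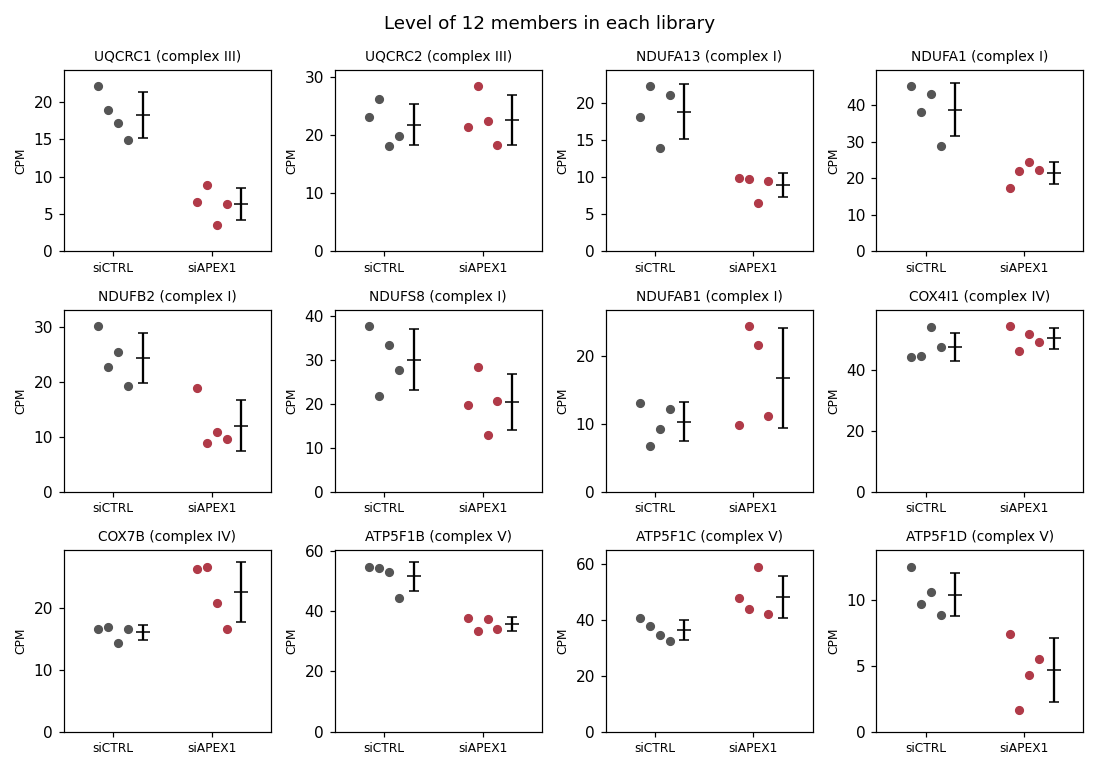
Level of 12 members in each library in CPM, with the mean and SD of the 4 libraries of each group beside the points. UQCRC1, NDUFA13, NDUFA1, NDUFB2, ATP5F1B and ATP5F1D sit lower in all siAPEX1 libraries and ATP5F1C higher, while UQCRC2 and COX4I1 overlap.

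Complex II, or succinate dehydrogenase, also works in the TCA cycle and had low counts. SDHB, its iron-sulfur subunit, was at 7.26 to 12.5 CPM in siCTRL and 5.56 to 8.23 CPM in siAPEX1, with overlap and a log2 fold change of -0.46 (95% interval -1.04 to 0.12, adjusted p = 0.232). SDHD, a membrane anchor, was at 3.52 to 6.64 CPM in siCTRL and 4.87 to 8.23 CPM in siAPEX1, with a log2 fold change of 0.31 (-0.34 to 0.96). The flavoprotein SDHA, at 1.01 to 5.56 CPM and 3.18 to 6.49 CPM, and the anchor SDHC, at 4.53 to 8.30 CPM and 2.43 to 4.77 CPM, were under the filter and not tested. All 4 SDHAF assembly factors were under it too. SDHA shares 21.7% of its exon bases with another gene on its strand. Neither tested subunit had an unadjusted p under 0.05 by edgeR with TMM factors or by DESeq2, while SDHB was called lower with library size only and SDHC, tested without siCTRL replicate 1, was called lower there.

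In complex III, 1 of 9 tested subunits fell and none rose, against 15.8% lower and 15.9% higher over all genes tested. At an unadjusted p under 0.05, 0 were higher by edgeR or DESeq2. UQCRC1 (ENSG00000010256, chr3:48599002-48610976), one of the paired core proteins that face the matrix, was at 22.1, 18.9, 17.1 and 14.9 CPM in siCTRL and 6.59, 8.93, 3.60 and 6.35 CPM in siAPEX1. The 44, 39, 37 and 27 counts of the siCTRL libraries stood against 8, 11, 5 and 8, and the groups were far from overlapping. Its log2 fold change of -1.53 (SE 0.257, adjusted p = 7.05e-06) was the largest among the members tested, and the call held at an adjusted p of 0.05 under all 17 alternative fits that tested it. Its partner UQCRC2 was at 18.1 to 26.2 CPM in siCTRL and 18.3 to 28.4 CPM in siAPEX1, with a log2 fold change of 0.05 (95% interval -0.31 to 0.41). The 95% interval of UQCRC1, -2.05 to -1.01, lies below that of UQCRC2, though the difference itself was not tested.

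Neither nuclear redox subunit of complex III passed the test. CYC1, cytochrome c1, was at 8.85 to 19.6 CPM in siCTRL and 7.93 to 12.7 CPM in siAPEX1, with a log2 fold change of -0.43 (95% interval -0.93 to 0.07), and UQCRFS1, the Rieske iron-sulfur protein, had -0.15 (-0.62 to 0.31). UQCRH, the hinge protein, had the highest level per length of the complex, 85.0 CPM per kilobase, and a log2 fold change of 0.13 (-0.14 to 0.40). In CPM alone UQCRH was not the highest, and the order per length depends on the canonical transcript taken for each gene. UQCRQ, a small supernumerary subunit, was lower in all siAPEX1 libraries at -0.36 but missed the threshold (adjusted p = 0.0616).

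In complex IV, cytochrome c oxidase, 1 of 12 tested subunits rose and none fell, against 15.9% higher and 15.8% lower over all genes tested. The median log2 fold change was 0.04. At an unadjusted p under 0.05, edgeR had 1 lower and DESeq2 had 0. COX7B, a small supernumerary subunit, was at 16.6, 17.0, 14.4 and 16.6 CPM in siCTRL and 26.4, 26.8, 20.9 and 16.7 CPM in siAPEX1. Replicate 4 of siAPEX1 was level with the siCTRL libraries, and the log2 fold change was 0.49 (SE 0.187, adjusted p = 0.0422). The call was lost on leaving out any siCTRL library (0.43 to 0.51) and without siAPEX1 replicate 1 (0.44) or 2 (0.42). DESeq2, library size only and both other count filters lost it too. COX7C, another small subunit, was higher in all siAPEX1 libraries, at 79.7 to 97.0 CPM and 97.3 to 110 CPM, with a log2 fold change of 0.21 that missed the threshold (adjusted p = 0.124).

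Of the paired isoforms of complex IV, one was counted in every library and the other stayed at or under 3 counts. COX4I1, the widely used form of subunit 4, was at 44.2 to 54.2 CPM in siCTRL and 46.3 to 54.3 CPM in siAPEX1 (log2 fold change 0.08, 95% interval -0.17 to 0.33), and COX4I2, the lung and hypoxia form, had 0 counts in every library. COX6A1 was at 12.2 to 18.9 CPM and 10.6 to 19.8 CPM against 0 counts of its muscle form COX6A2. COX7A2 was at 67.0 to 105 CPM and 77.4 to 93.0 CPM against 0 counts of the muscle form COX7A1. COX8A was at 41.6 to 48.2 CPM and 45.3 to 68.5 CPM against 0 counts of COX8C, and COX7B2, the paralog of COX7B, had 0 too. A count of 0 allows up to 3 counts. COX6B1 was at 75.1 to 80.8 CPM and 69.1 to 86.5 CPM, with a log2 fold change of 0.02 (-0.20 to 0.24), and its testis form COX6B2 had at most 3 counts in any library. NDUFA4, now counted as a subunit of complex IV, was at 19.0 to 34.2 CPM and 20.6 to 24.3 CPM, while NDUFA4L2, its hypoxia-induced paralog, also stayed within 3 counts. Per kilobase of transcript, COX7A2 stood first of all members at 182 CPM, followed by COX6B1 at 162 CPM. COX8A shares 35.4% of its exon bases with another gene on its strand.

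In complex V, 4 of 17 tested subunits fell and 2 rose, against 15.8% lower and 15.9% higher over all genes tested. The median log2 fold change was 0.08. In the catalytic head and its shaft the beta and delta subunits fell and the gamma subunit rose. ATP5F1B (ENSG00000110955, chr12:56638175-56645984), the catalytic beta subunit, was at 54.8, 54.2, 52.8 and 44.3 CPM in siCTRL and 37.9, 33.3, 37.5 and 34.2 CPM in siAPEX1. The groups did not overlap, the log2 fold change was -0.53 (SE 0.130, adjusted p = 0.00139), and the call held at an adjusted p of 0.05 under all 18 alternative fits, though the change is under both fold thresholds of 0.75 and 1. It lies outside the rule for named genes and was chosen after its values were seen. ATP5F1D (ENSG00000099624, chr19:1241746-1244825), the delta subunit of the central stalk, was at 12.6, 9.69, 10.7 and 8.85 CPM in siCTRL and 7.41, 1.62, 4.33 and 5.56 CPM in siAPEX1. It was lower in every siAPEX1 library on 2 to 25 counts, with a log2 fold change of -1.14 (SE 0.315, adjusted p = 0.00444). ATP5F1C (ENSG00000165629, chr10:7788147-7807815), the gamma subunit that turns within the head, was at 40.7, 37.8, 34.8 and 32.7 CPM in siCTRL and 47.8, 43.8, 59.1 and 42.1 CPM in siAPEX1. It was higher in every siAPEX1 library, by 0.41 on the log2 scale (SE 0.134, adjusted p = 0.0177), and the call was lost without siCTRL replicate 3 (0.38) or siAPEX1 replicate 3 (0.31). DESeq2, library size only and both other count filters also lost the call of ATP5F1C.

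The partners of these subunits did not pass. The alpha subunit ATP5F1A had a log2 fold change of 0.16 (95% interval -0.11 to 0.44), and the epsilon subunit ATP5F1E, which overlaps TUBB1 on the opposite strand over 23.2% of its exon bases, had 0.15 (-0.08 to 0.38). In the peripheral stalk, ATP5PO, the oligomycin sensitivity protein, was at 18.6, 17.9, 17.1 and 14.9 CPM in siCTRL and 14.8, 8.93, 9.37 and 8.74 CPM in siAPEX1. Its groups touched at siAPEX1 replicate 1 without overlapping, and the log2 fold change was -0.72 (SE 0.223, adjusted p = 0.0109), with the call lost by DESeq2 and without siAPEX1 replicate 3 (-0.64) or 4 (-0.62). In the membrane part, ATP5MF (subunit f) was at 32.2, 26.2, 33.4 and 29.3 CPM in siCTRL and 14.0, 17.0, 27.4 and 19.9 CPM in siAPEX1, and ATP5MG (subunit g) at 20.1, 15, 22.2 and 13.3 CPM against 32.9, 24.3, 23.8 and 21.4 CPM. The groups overlapped for both. ATP5MF stood at -0.61 on the log2 scale (adjusted p = 0.00654) and lost its call without siAPEX1 replicate 1 (-0.46). ATP5MG went the other way at 0.52 (adjusted p = 0.0309), and lost its call without siCTRL replicate 2 (0.44) or 4 (0.42) or siAPEX1 replicate 1 (0.41). It also lost the call with DESeq2, library size only and both other count filters.

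The ring of c subunits that carries the protons is made of one mature protein from 3 genes. ATP5MC2 was the highest per length, 86.8 CPM per kilobase, against 16.8 for ATP5MC1 and 9.33 for ATP5MC3. The order of the latter genes depends on the canonical transcript taken, 646 bases for ATP5MC1 and 2587 for ATP5MC3. In CPM, mean ATP5MC3 was 27.4 in siCTRL and 20.9 in siAPEX1, above ATP5MC1 at 9.86 and 11.9. None was called, with log2 fold changes of 0.08 (95% interval -0.20 to 0.37) for ATP5MC2, 0.26 (-0.27 to 0.78) for ATP5MC1 and -0.40 (-0.75 to -0.04, adjusted p = 0.0837) for ATP5MC3. UQCRHL, ATP5MGL and the readthrough genes ATP5MF-PTCD1 and NDUFC2-KCTD14 had at most 3 counts in every library.

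Summed over all members of a complex, the libraries of the groups did not overlap for complex I alone. Its sum was 600, 505, 530 and 503 CPM in siCTRL and 452, 476, 479 and 448 CPM in siAPEX1, with means of 534 ± 45.4 and 464 ± 15.8 (SD, n = 4) and a ratio of 0.867. The nearest libraries stood at 503 and 479 CPM. The sums were not tested, not set against other genes and not repeated under another scaling or with offsets for GC content. The sum of complex II was 24.9 ± 5.75 against 21.9 ± 3.58 CPM (siCTRL against siAPEX1), that of complex III 248 ± 35.0 against 235 ± 11.4 CPM, that of complex IV 522 ± 35.8 against 551 ± 20.8 CPM and that of complex V 484 ± 42.3 against 484 ± 13.1 CPM. For the members as a whole the sum was 1868 ± 159 against 1816 ± 49.7 CPM, well within the spread between libraries.

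**Figure D3:**
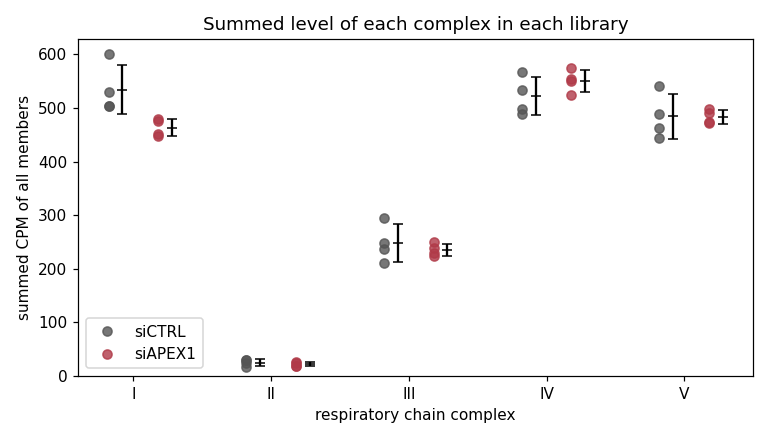
Summed level of all members of each complex in each library in CPM, with the mean and SD of the 4 libraries of each group. Complex I lies at 503 to 600 CPM in siCTRL and 448 to 479 CPM in siAPEX1, and the other complexes overlap.

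The members that fell had transcripts richer in GC than the others. Median GC content was 58.3% in the 13 that fell, 41.9% in the 4 that rose and 46.0% in the 62 not called. The correlation of log2 fold change with GC content was -0.36 (Pearson, across 79 members, which are not independent replicates) and -0.22 across the 4857 coding genes, whose median log2 fold change went from 0.13 at up to 40% GC to -0.26 above 60%. All points share the same 8 libraries. With offsets that take out this trend, added after the data were seen, 8 members were higher and 8 lower, against 14.0% higher and 12.8% lower of the 4857 coding genes, and ATP5F1D (-0.81), NDUFA11 (-0.49), NDUFB10 (-0.54), NDUFB11 (-0.52), NDUFB9 (-0.38) and NDUFS8 (-0.29) lost their calls. ATP5MC3, ATP5PD, COX8A, NDUFA3 and NDUFS7 gained one. The 11 other calls of the main fit held with the offsets. The part of GC content in any call, lost or kept, was not tested. Members are also short, at a median of 758 bases against 3682 over the coding genes. Coding genes of 500 to 1000 bases had a median log2 fold change of -0.11 and the 38 members of that length -0.07, with 8 called lower and 1 higher. Up to 500 bases the coding genes had 0.06 and the 10 members -0.16, with 3 called lower. Calls of coding genes were not counted by length, and over all lengths 12.4% were higher and 15.9% lower.

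**Figure D4:**
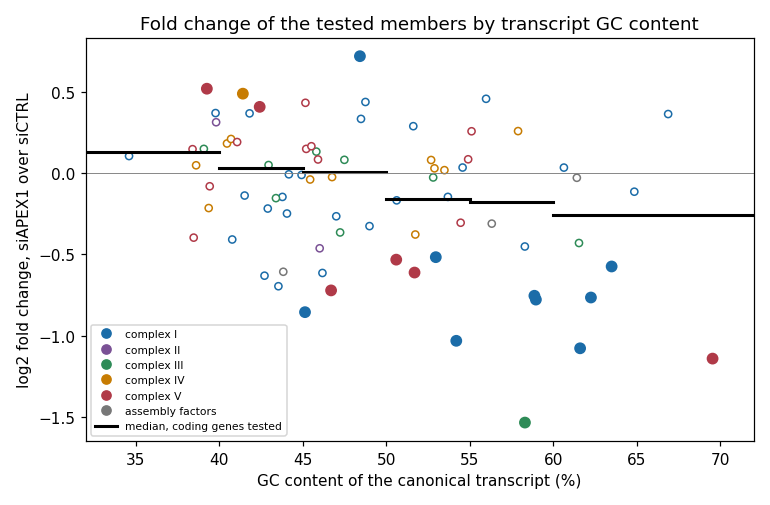
Log2 fold change of 78 of the 79 tested members against the GC content of the canonical transcript in percent, filled where called. Black bars give the median of the tested coding genes in classes of GC content, which runs from 0.13 down to -0.26, and all points called lower lie above 45%.

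The number of members called depended on the scaling. Scaled to library size only, 32 members were lower and none higher, against 36.2% lower and 6.33% higher over all genes. At an unadjusted p under 0.05, 37 members were lower and 0 higher. All genes tested had a median of -0.34 on the log2 scale there and the members one of -0.38. Relative to all genes the members were thus close to 0 there too. The 4 members that rose kept their sign without a call, at 0.06 to 0.38, and the medians of complexes IV and V turned to -0.30 and -0.26. DESeq2, the tool of the study, called 8 members lower and none higher, with 12 and 4 at an unadjusted p under 0.05, against calls in 10.1% of all genes for lower and 10.8% for higher. NDUFA11, NDUFB9, NDUFB10, NDUFS8 and ATP5PO lost their lower calls there, as did the 4 members that rose. At an adjusted p of 0.05 and with no fold threshold, NDUFA1, NDUFB2 and ATP5F1B were called under all 18 alternative fits, and UQCRC1 and NDUFA13 under all 17 that tested them. Past a log2 change of 1 in size NDUFA1 and ATP5F1B were not called.

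**Figure D5:**
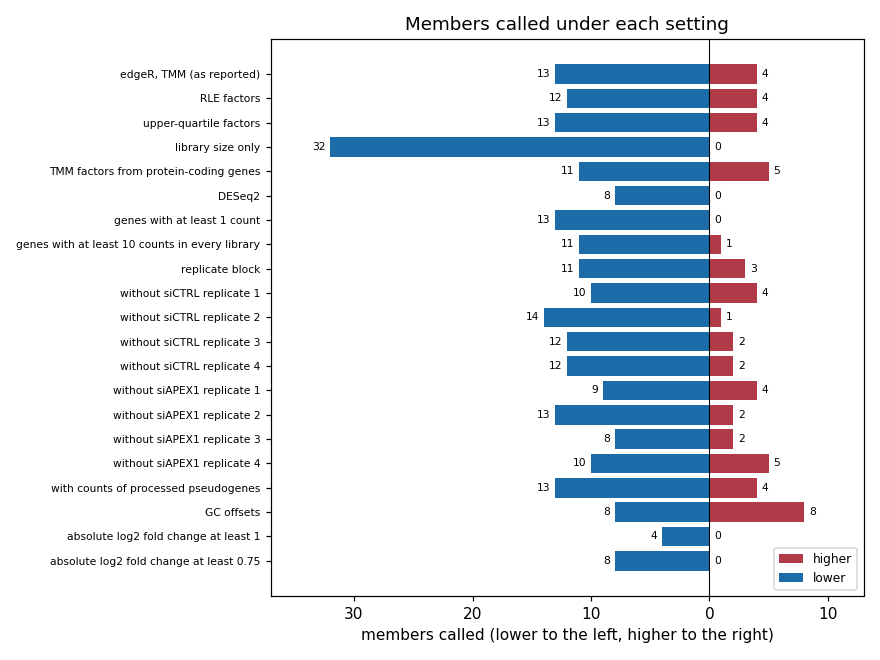
Number of members called at an adjusted p of 0.05 under each setting, lower to the left and higher to the right, with a fold threshold added in the last rows. Lower calls run from 4 to 32 and higher calls from 0 to 8.

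Some reads could belong to copies of these genes. Pseudogenes named for 52 members numbered 195, and together they held 60 counts in all libraries against 24249 for the members, 0.247%. None had more than 3 counts in a library, and adding them left the calls at 4 higher and 13 lower. Reads that fit a member and a copy equally well were left out of the counts, so these values cannot show how many there were. Small RNA genes inside the members were also counted. SNORD59A, a box C/D small nucleolar RNA in an intron of ATP5F1B, had 14831 to 18523 counts in siCTRL and 12522 to 17406 in siAPEX1. In CPM it was at 7627 to 9314 and 10163 to 12548, so it rose by a log2 fold change of 0.48 (adjusted p = 1.86e-05) while ATP5F1B fell by 0.53 on the log2 scale. MIR191, which lies on the opposite strand within NDUFAF3 and outside its exons, had 745 to 1148 counts in siCTRL and 314 to 491 in siAPEX1, and it fell by 0.55 on the log2 scale (adjusted p = 3.91e-05). The entries for SNORD138 in COX7C, MIR1307 in ATP5MK and MIR4691 and MIR7113 in NDUFS8, which overlap exons of their hosts, were at 0 counts.

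Genes that work with the chain were read from lists outside the members. Among 47 other assembly factors, 20 were tested, of which 2 rose and none fell in edgeR, with the same counts at an unadjusted p under 0.05. HIGD2A, an assembly factor of complex IV, was at 20.5 ± 1.70 CPM in siCTRL and 38.4 ± 9.85 CPM in siAPEX1 (log2 fold change 0.91, adjusted p = 2.84e-05), and TTC19, of complex III, at 16.4 ± 2.58 and 24.6 ± 4.53 CPM (0.58, adjusted p = 0.0146), both SD with n = 4. Of 17 other electron carriers and related genes 5 were tested and 1 fell, the mitochondrial glycerol-3-phosphate dehydrogenase GPD2, from 13 to 18 counts in siCTRL to 3 or 4 in siAPEX1 (-1.55, adjusted p = 0.00121). In the TCA cycle 3 of 14 tested enzymes fell and none rose, against 4 and 1 at an unadjusted p under 0.05, with IDH2 at -0.82 (adjusted p = 0.0252) and IDH3G at -0.80 (adjusted p = 0.0434) as the largest falls. Of 16 regulators of mitochondrial gene expression 5 were tested and 1 fell, SLIRP, which guards mitochondrial mRNA (-0.60, adjusted p = 0.00839). The 13 subunits read from mitochondrial DNA were all tested, with 6 higher and 5 lower. Over all genes tested, the background for each of these lists, 15.9% were higher and 15.8% lower. The summed level of the 13 was 50833 to 55918 CPM in siCTRL and 40316 to 42752 CPM in siAPEX1. Of this, MT-ATP8 alone had a mean of 23621 CPM in siCTRL and 14527 CPM in siAPEX1. Log2 fold changes ran from MT-ATP8, which overlaps MT-ATP6, at -0.70 (adjusted p = 7.07e-09) to MT-CO1 at 1.20 (adjusted p = 1.49e-13).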

How the data were processed

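RNA-seq was analysed for 8 libraries of A549 cells, 4 siCTRL and 4 siAPEX1, grouped by their labels. Total RNA was sequenced with the SMARTer smRNA-Seq kit, changed to keep primary miRNAs, as single-end reads. The authors trimmed adapters and tails, aligned the reads to GRCh38 with STAR 2.5.3a and deposited raw counts per Ensembl gene (GeneCounts, in which reads that fit several genes or places are left out). The annotation release and the strand setting are not given in the sources used here.

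Counts were tested with edgeR 4.0.16 in R 4.3.3 (TMM factors, filterByExpr at its settings of 10 counts and 15 in total, quasi-likelihood test, Benjamini-Hochberg adjustment over the 5368 genes tested, which held 97.5% to 98.1% of the reads). A call is an adjusted p of at most 0.05, two-sided. CPM use the TMM factors. Each standard error is the size of the log2 fold change over the square root of F, intervals of the fit are at 95%, and the floor of 3 counts covers counting error only. The common coefficient of variation between replicates was 0.0832. Scripts were tested on simulated counts. Members, complexes and exon overlaps came from GENCODE 44, promoters from RefSeq, and levels per length from the canonical transcript.

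Members and lists were chosen with earlier results of these data known. Named genes were, in each complex, up to 3 called members with the largest rise and 3 with the largest fall, the member highest per kilobase, the isoform pairs, the nuclear core subunits of complex I, complex II, CYC1 and UQCRFS1, members at or under the floor, and, in each list outside the members, up to 2 called genes per direction. The other called members, UQCRC2, UQCRQ, COX7C, NDUFA7, NDUFAF2, ATP5F1A, ATP5F1E, NDUFAF3, SNORD59A and MIR191 were named after their values were seen. A core subunit is counted but not reported here by name. Alternatives were RLE, upper-quartile, library size and coding-gene TMM scaling, DESeq2 1.42.0, 2 other filters, the replicate number as a block, each library left out, pseudogene counts added, fold thresholds of 1 and 0.75 and, added later, GC offsets on coding genes. No 2 replicates agreed within counting noise.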

Additional observations from a re-analysis of the deposited data

Results flagged for a closer look

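In 4 of the 86 groups of 4 libraries examined, 1 library lay far from the other 3 by Dixon's test, and chance gives about 1 in 20. ATP5PO was at 14.8 CPM in siAPEX1 replicate 1 and at 8.74 to 9.37 CPM in the others. COX7B was at 14.4 CPM in siCTRL replicate 3 and at 16.6 to 17.0 CPM in the others. NDUFA13 was at 6.49 CPM in siAPEX1 replicate 3 and at 9.53 to 9.88 CPM in the others. NDUFV1 was at 8.23 CPM in siCTRL replicate 2 and at 10.5 to 10.7 CPM in the others.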

How the results depend on the processing

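The number of members called (4 higher, 13 lower) moved to 0 and 32 with library size only, 0 and 8 with DESeq2, 8 and 8 with GC offsets, 0 and 4 past a log2 change of 1 in size, and 0 and 8 past 0.75. No share over all genes was computed past 0.75. Among genes with at least 1 count, 0 of 95 members were higher (6 at an unadjusted p under 0.05) and 13 lower. Over all 22272 genes there, 703 were higher and 1126 lower. Where each library had to reach 10 counts, 1 of 51 members was higher and 11 lower. Over all 3147 genes there, 581 were higher and 611 lower. With 1 library left out, higher calls ran from 1 to 5 and lower calls from 8 to 14. Over all genes tested in those fits, 5528 to 5927, calls ran from 761 to 849 higher and 722 to 828 lower. Fewest lower, 8 (with 2 higher), came without siAPEX1 replicate 3, and fewest higher, 1 (with 14 lower), without siCTRL replicate 2, while 2 were higher without siCTRL replicate 3 or 4 or siAPEX1 replicate 2. The replicate numbers did not pair the libraries (correlation of deviations -0.037 to -0.0035, and 0 libraries correlated best with their own number), and the replicate block gave 3 higher and 11 lower. Over all 5368 genes tested, the block gave 806 higher and 789 lower.

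By complex, library size only gave medians of -0.50 (I), -0.41 (II), -0.37 (III), -0.30 (IV) and -0.26 (V), a median of -0.38 over the members, and 16, 1, 3 and 4 calls in complexes I to IV. DESeq2 gave 4 calls in complex I, 0 in IV and 3 in V. With genes of at least 1 count the medians of complexes IV and V were -0.056 and -0.012, with 2 calls in III and 0 in IV. With GC offsets the median of IV was 0.16, with 2 calls. Leaving out a library gave medians from -0.28 to -0.10 in complex I, -0.55 to 0.035 in II, 0.039 to 0.15 in IV and 0.028 to 0.18 in V, and 4 to 8 calls in I, 0 to 1 in II, 1 to 2 in III and 0 to 1 in IV. The 4 calls in I came without siAPEX1 replicate 3, the 1 in II without siCTRL replicate 1, the 2 in III without siCTRL replicate 2 or 3, and the 0 in IV without any 1 siCTRL library or siAPEX1 replicate 2.

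Signs of small log2 fold changes turned in genes that were not called. With library size only, ATP5MC1 was at -0.084, ATP5MC2 -0.26, COX4I1 -0.26, COX6A1 -0.31, COX6B1 -0.32, COX8A -0.086, NDUFV1 -0.31, SDHD -0.026 and UQCRH -0.21. With genes of at least 1 count, ATP5MC2 was at -0.012, COX4I1 -0.014, COX6A1 -0.065, COX6B1 -0.076 and NDUFV1 -0.060, and with at least 10 in every library ATP5MC2 -0.0022, COX4I1 -0.0066, COX6A1 -0.058 and COX6B1 -0.069. With TMM factors from coding genes, COX7A2 was at 0.019, NDUFB1 0.036 and NDUFV2 0.032. With GC offsets, COX7A2 was at 0.0054, NDUFB1 0.0053, NDUFS3 0.0026 and NDUFV2 0.0050. NDUFB1 was at 0.0032 with DESeq2, 0.0025 with the replicate block and 0.0039 with pseudogene counts. Leaving out a library moved ATP5MC2 from -0.036 to 0.23, COX6A1 from -0.075 to 0.19, COX6B1 from -0.0046 to 0.10, COX7A2 from -0.11 to 0.086, NDUFB1 from -0.12 to 0.10, NDUFS3 from -0.33 to 0.019, NDUFV1 from -0.19 to 0.28 and NDUFV2 from -0.19 to 0.21. The cause of these shifts was not tested. No called member changed sign. Over 37 genes and their alternatives, 528 of 656 values kept direction and side of the threshold, 69 lost a call, 11 gained one and 48 turned. Depth limits the members most in complex II and the assembly factors, where few counts were read.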
